A study of Mus musculus with 12 samples.

Results

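The 35 genes described here encode the proteins that carry glucose into the cell, break it down to pyruvate and lactate, pass pyruvate to the mitochondrion, store glucose as glycogen, or divert it into the pentose phosphate pathway. They were listed by function, with earlier results of these data known, and all 35 were found among the 38887 genes of the deposited count table. All 35 also passed the filter on low counts, as 15494 genes did. The cells were Ly6G+ spleen cells of mice aged 2 days, 7 days, 14 days or 6 weeks, with 3 RNA-seq libraries per age and 12 in all. Ly6G marks neutrophils on their surface, and the submitters name the cells of every age PMN-MDSC, polymorphonuclear myeloid-derived suppressor cells. The study asks what governs a suppressive activity that these cells have early in life. No treatment, genotype or transgene is given for any age. Strain, sex, batch and the number of mice per library are not stated.

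Neutrophils have few mitochondria and obtain most of their ATP from glycolysis, the breakdown of glucose to pyruvate, most of which leaves the cell as lactate. They hold glycogen as a reserve of glucose. The pentose phosphate pathway branches off at glucose 6-phosphate and makes NADPH, which feeds the oxidative burst and keeps glutathione reduced.

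Levels are in CPM, counts scaled to a common normalized library size, or, where genes are compared with each other, RPKM, the same value per kilobase of exon. Exon length covers every annotated exon of a gene and can exceed that of its transcripts, so levels and shares between genes depend on it. A change is a log2 fold change ± SE of the later over the earlier age, from edgeR's quasi-likelihood test over all 12 libraries. A gene is called changed where its p-value, adjusted over the 15494 genes by the Benjamini-Hochberg method, is below 0.05. Libraries held 34495767 to 38795913 counts, of which the 35 genes took 1.33% to 1.75%. Whether the 3 libraries of each age are from different mice is not stated, so p-values measure the spread between libraries, which may be technical. Neutrophil markers were high at every age, with a summed level of 73570 to 110300 CPM for 12 genes, and Ly6g itself lay between 74.9 and 189.5 CPM. In bulk RNA, fewer cells of a type and less RNA per cell cannot be told apart. 2-day replicate 2 and 14-day replicate 1 stood apart from the other libraries of their age, with normalization factors of 0.828 and 0.918. Y-linked transcripts were counted 1816 to 4010 times per library at 2 and 7 days and at most 1 time later, so the sex of the mice and any difference of the older pair of ages from the younger pair cannot be told apart. Xist, a transcript of female cells, was at 158 to 207 CPM at 2 days, 187 to 441 at 7 days and 229 to 508 later. Each 2-day and 7-day library thus held RNA of both sexes, and so of more than 1 mouse. The pairs 7 days over 2 days and 6 weeks over 14 days do not cross that divide, but the mix of sexes may differ between 2 and 7 days. G6pdx, Pgk1, Pdk3 and Pdha1 lie on the X chromosome, and the part of sex in their levels was not tested.

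Among the 5 pairs of ages tested, the largest rise of the set was that of Slc2a6, a glucose transporter, and the largest fall that of Slc16a1, a lactate carrier. Promoters of 4 carriers are shown because Slc2a1, Slc2a6 and Slc16a3 fell at 7 days and rose at 14 days while Slc16a1 did the reverse. Each is 300 bases from RefSeq on GRCm38.p6, from 250 bases before a listed transcription start to 50 after it, written 5′ to 3′ on the gene's strand. The Slc16a3 window lies inside the gene as GENCODE annotates it, which starts at 120948480. Capitals mark the letters ACGTG or GCGTG, the core of the hypoxia response element bound by HIF, or their reverse complements CACGT and CACGC. In Slc16a1 the capitals CACGTG hold ACGTG on both strands and are also the E-box bound by MYC.
Slc2a1, chr4:119108495-119108794, plus strand: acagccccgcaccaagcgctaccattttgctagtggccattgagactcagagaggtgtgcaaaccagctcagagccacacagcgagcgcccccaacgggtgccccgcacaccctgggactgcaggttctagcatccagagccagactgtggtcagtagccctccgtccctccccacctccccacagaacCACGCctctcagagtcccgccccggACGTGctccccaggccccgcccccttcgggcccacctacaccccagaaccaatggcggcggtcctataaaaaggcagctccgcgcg
Slc2a6, chr2:27027949-27028248, minus strand: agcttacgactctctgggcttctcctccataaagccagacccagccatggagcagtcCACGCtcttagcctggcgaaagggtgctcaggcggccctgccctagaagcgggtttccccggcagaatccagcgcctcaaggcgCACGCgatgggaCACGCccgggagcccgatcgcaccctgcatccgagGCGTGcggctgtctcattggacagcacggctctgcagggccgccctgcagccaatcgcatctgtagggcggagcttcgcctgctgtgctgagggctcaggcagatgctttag
Slc16a3, chr11:120948817-120949116, plus strand: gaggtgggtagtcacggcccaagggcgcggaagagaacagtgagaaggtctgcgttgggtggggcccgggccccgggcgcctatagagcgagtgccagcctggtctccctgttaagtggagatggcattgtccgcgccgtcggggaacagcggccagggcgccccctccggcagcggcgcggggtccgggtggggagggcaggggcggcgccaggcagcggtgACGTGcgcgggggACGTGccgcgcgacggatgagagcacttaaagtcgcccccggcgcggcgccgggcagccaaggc
Slc16a1, chr3:104638414-104638713, plus strand: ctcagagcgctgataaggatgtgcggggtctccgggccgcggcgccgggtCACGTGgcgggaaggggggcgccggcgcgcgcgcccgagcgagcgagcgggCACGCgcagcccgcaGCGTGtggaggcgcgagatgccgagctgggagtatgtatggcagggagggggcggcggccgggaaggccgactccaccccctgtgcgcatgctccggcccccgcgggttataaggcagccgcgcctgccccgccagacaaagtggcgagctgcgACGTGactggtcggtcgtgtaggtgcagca
The core was found 2 times in the Slc2a1 window, 4 times in Slc2a6, 2 times in Slc16a3 and 5 times in Slc16a1. All 4 windows therefore hold it, whichever way the gene moved. RefSeq listed 50 promoters for 34 of the 35 genes, and 41 of the 50 (82%) held a core on either strand, against 43.8% of 32851 promoters of the same length. These windows were also richer in G and C, with a median of 60.8% against 52.7% for all promoters, and no allowance was made for this. CACGTG, which contains ACGTG, was in 5 of the 50 and in 7.15% of all promoters. A match says only that these letters are in the window.

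By its mean summed level, the set was lowest at 7 days and highest at 6 weeks. This sum was 14160 to 19420 CPM at 2 days, 12080 to 14480 at 7 days, 14000 to 17880 at 14 days and 17510 to 18180 at 6 weeks. All pairs of ages overlapped but 1: every 6-week library exceeded every 7-day library. In the joint test of any difference among the 4 ages 28 of the 35 genes were called, against 69.2% of all genes tested. Hk1, Gapdh, Pgk1, Pkm, Pdha1, Pgd and Tkt were not. Of the 28, 17 had their highest mean at 6 weeks, 6 at 2 days, 3 at 7 days and 2 at 14 days. Among all 10725 genes called, 27.5% were highest at 6 weeks. The lowest mean fell at 7 days for 15 of the 28 and at 2 days for 9, against 35.2% and 25.2% of all genes called.

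**Figure D1:**
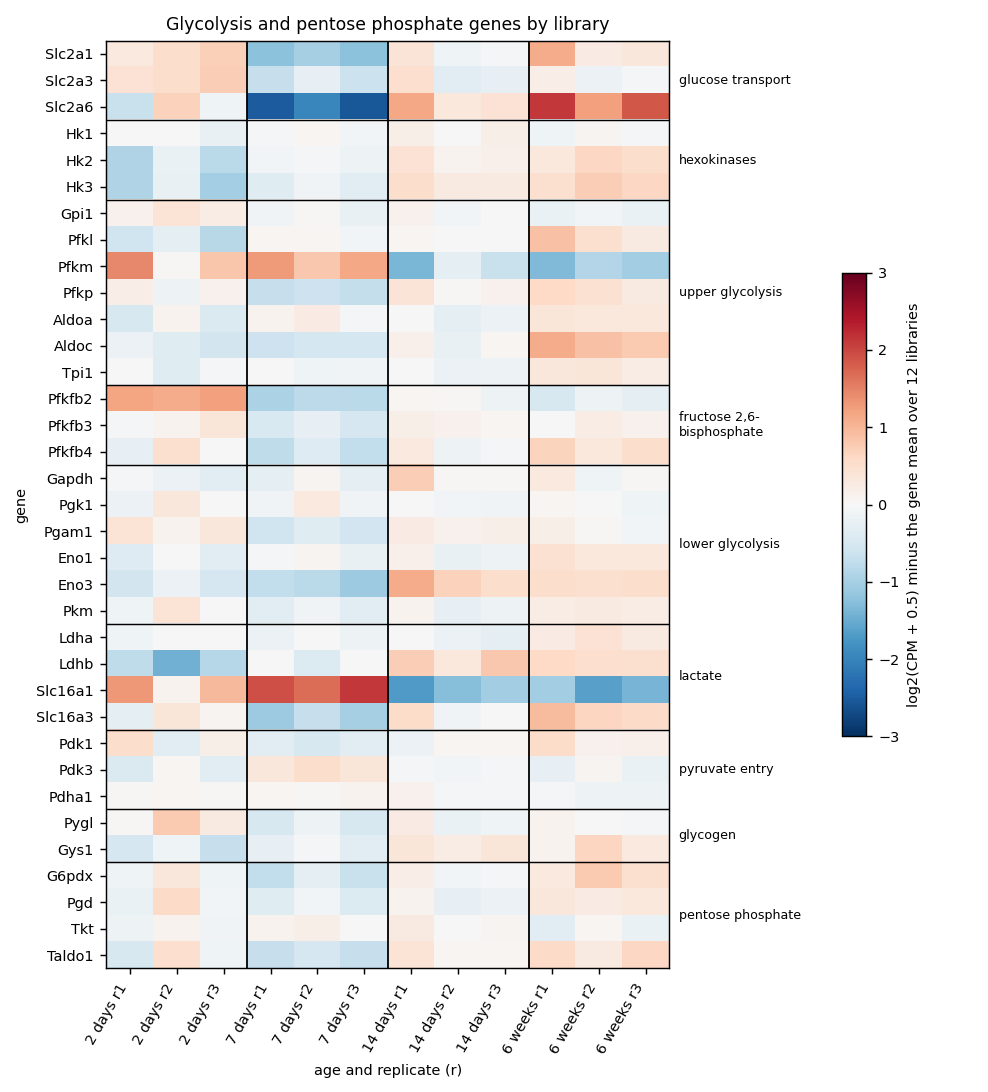
Level of each of the 35 genes (rows, grouped by role) in each of the 12 libraries (columns, by age and replicate), as log2(CPM + 0.5) minus the gene's mean over the 12 libraries; red is above that mean and blue below it. The 7-day columns are blue for most transporter, lactate exporter and pentose phosphate rows, while Slc16a1 and Pfkm are red at 2 and 7 days and blue at 14 days and 6 weeks.

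Between successive ages the direction turned. At 7 days over 2 days, 15 genes of the set fell and 5 rose, where 25.8% of all genes fell and 22.9% rose. The median log2 fold change of the 35 was -0.33, against -0.01 for all genes tested. With library totals in place of normalization factors, 12 fell and 10 rose, and the medians were -0.18 and 0.14. Fitted alone with the replicate number as a block, these 2 ages gave 12 falls and 6 rises. At 14 days over 7 days, 15 rose and 3 fell, where 24% of all genes rose and 21.9% fell, and the medians were 0.37 and 0.02. For the last step, 6 weeks over 14 days, 5 rose and none fell, where 9.26% of all genes rose and 9.68% fell, and the medians were 0.25 and -0.0004. At an unadjusted p below 0.05, 1 gene was lower at 6 weeks than at 14 days, and DESeq2 called 0. These comparisons share libraries at the age they have in common, so the fall and the return are not independent of each other. All 3 libraries of the later age lay outside those of the earlier one, above in 5 genes and below in 14 at 7 days over 2 days (27.4% and 27.7% of all genes), above in 17 and below in 3 at 14 days over 7 days (32.2% and 31.7%), and above in 13 and below in 3 at 6 weeks over 14 days (21.9% and 22.2%).

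Across the wider spans more of the set rose than fell. At 6 weeks over 2 days, 15 genes rose and 4 fell (19.7% and 20.7% of all genes), with medians of 0.25 for the set and -0.04 for all genes. For 6 weeks over 7 days, 23 rose and 3 fell (26.6% and 24.5% of all genes), with medians of 0.55 and 0.01. The libraries of both ages did not overlap in 26 genes that were higher and 4 that were lower at 6 weeks over 7 days (35.6% and 34.3% of all genes), and in 14 and 6 at 6 weeks over 2 days (23.3% and 24%). With library totals in place of normalization factors, 19 rose and 6 fell, and the share of rises among all genes called at 6 weeks over 7 days was 40.7% in place of 52.1%. Leaving out 7-day replicate 3 left 15 rises in this pair, where 41.5% in place of 51% of all genes were called. Without 2-day replicate 2, 8 genes in place of 5 rose at 7 days over 2 days, where 50.9% in place of 48.7% were called. The count of 5 at 6 weeks over 14 days depended on single libraries. Leaving out 2-day replicate 2 gave 11, 2-day replicate 1 gave 8, 7-day replicate 3 gave 3, 6-week replicate 1 or 2 gave 2, and 14-day replicate 2 or 3 gave 1. The share of all genes called at that step, in either direction, moved as well, from 18.9% with all libraries. It was 29.3% and 21.8% without 2-day replicates 2 and 1, and 15.5% without 7-day replicate 3. Without 6-week replicates 1 and 2 it was 10.7% and 13.9%, and without 14-day replicates 2 and 3 12.7% and 13.2%. Aldoc was the 1 gene called at that step in all 12 fits that left out a library.

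**Figure D2:**
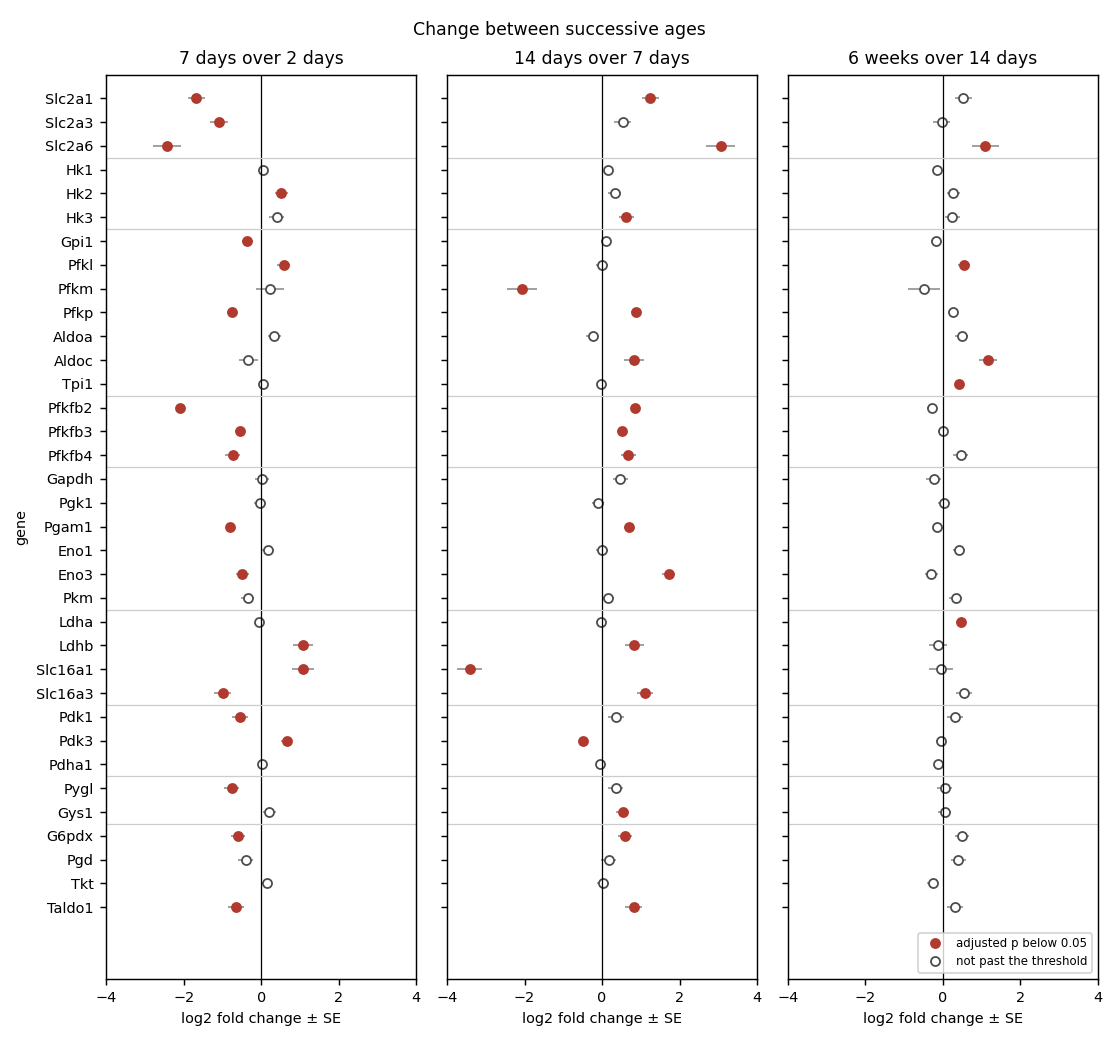
Log2 fold change ± SE of each gene at 7 days over 2 days (left), 14 days over 7 days (middle) and 6 weeks over 14 days (right); filled points have an adjusted p below 0.05 in edgeR's quasi-likelihood test. Most filled points lie left of 0 in the first panel (15 of 20) and right of 0 in the second (15 of 18), and 5 are filled in the third.

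Of the 12 neutrophil markers, 2 rose and 5 fell at 7 days over 2 days (22.9% and 25.8% of all genes). At 6 weeks over 7 days 5 rose and 1 fell (26.6% and 24.5%). At 14 days over 7 days 2 rose and 0 fell (24% and 21.9%), and 0 also fell at an unadjusted p below 0.05 in edgeR and with DESeq2. At that step 8 markers had all 14-day libraries above all 7-day libraries (32.2% of all genes). Median changes of the 12 markers were -0.32 at 7 days over 2 days, 0.37 at 14 days over 7 days and 0.09 at 6 weeks over 14 days, beside -0.33, 0.37 and 0.25 for the 35 genes. Markers of cell types other than neutrophils moved over the same ages. Erythroid markers summed to 333 to 682 CPM at 2 days, 2480 to 4206 at 7 days, 91.1 to 266 at 14 days and 132 to 410 at 6 weeks. Of these 13 genes 12 rose at 7 days over 2 days and 13 fell at 14 days over 7 days. Mast cell and basophil markers summed to 3914 to 6427 CPM at 2 days, 634 to 842 at 7 days, 1026 to 1100 at 14 days and 1419 to 1636 at 6 weeks, and 10 of 10 fell at 7 days over 2 days. At 14 days over 7 days 1 rose and 8 fell (24% and 21.9% of all genes), although the sum was higher. At 6 weeks over 2 days 0 of these 10 genes rose and 9 fell (19.7% and 20.7%). Among them Tpsab1, a mast cell tryptase, was at 0 at 14 days and 6 weeks. Monocyte and macrophage markers summed to 875 to 1237 CPM at 2 days, 2195 to 2248 at 7 days, 1321 to 1662 at 14 days and 4170 to 4461 at 6 weeks, and 9 of 12 rose at 6 weeks over 14 days. Cytosolic heat-shock genes summed to 278 to 402 CPM at 2 days, 22300 to 27130 at 7 days, 203 to 303 at 14 days and 324 to 442 at 6 weeks. All 6 rose at 7 days over 2 days. The 6 genes of dividing cells summed to 251 to 457 CPM at 2 days, 1246 to 1336 at 7 days, 675 to 688 at 14 days and 296 to 440 at 6 weeks, and all 6 rose at 7 days over 2 days. Of all genes, 22.9% rose and 25.8% fell at 7 days over 2 days. Falls were 21.9% at 14 days over 7 days, and rises 9.26% at 6 weeks over 14 days. The part of these markers in the results was not tested.

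Among the glucose transporters, all 3 fell at 7 days over 2 days, where 25.8% of all genes did. Slc2a1 encodes GLUT1, the widespread basal glucose transporter. It had 133, 156 and 179 CPM at 2 days, 45.7, 54.4 and 46.3 at 7 days, 141, 99.7 and 106 at 14 days, and 234, 129.8 and 138 at 6 weeks. All 7-day libraries lay below all others, and the other 3 ages overlapped. The change was -1.68 ± 0.22, adjusted p = 8.12e-05, at 7 days over 2 days and 1.24 ± 0.22, adjusted p = 0.000737, at 14 days over 7 days. The difference between 6 weeks and 2 days did not pass the threshold (0.10 ± 0.22, adjusted p = 0.753).

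Slc2a3 encodes GLUT3, a high-affinity glucose transporter. Its levels were 1277, 1369 and 1579.9 CPM at 2 days, 584, 791 and 607 at 7 days, 1338, 742 and 800.4 at 14 days, and 1079, 832 and 915 at 6 weeks. The 7-day libraries were below all 2-day libraries and overlapped those of 14 days. It fell at 7 days (-1.09 ± 0.22, adjusted p = 0.00155), and the step to 14 days did not pass the threshold (0.54 ± 0.22, adjusted p = 0.0608). The same held for 6 weeks over 2 days (-0.58 ± 0.22, adjusted p = 0.0507).

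Slc2a6 encodes GLUT6, a transporter kept mainly on internal membranes. It had 43.6, 114 and 63.6 CPM at 2 days, 11.9, 17.5 and 11.5 at 7 days, 158, 87.6 and 95.5 at 14 days, and 309, 165 and 254 at 6 weeks. The 7-day libraries were the lowest and the 6-week libraries the highest, with no overlap between either of these and any other age. The fall at 7 days over 2 days was -2.43 ± 0.37, adjusted p = 0.000207, and the rise at 14 days over 7 days was 3.06 ± 0.37, adjusted p = 6.16e-05. Over the wider spans it was 1.72 ± 0.35, adjusted p = 0.00213, at 6 weeks over 2 days and, at 6 weeks over 7 days, 4.15 ± 0.39, adjusted p = 6.61e-06, the largest rise of the set in any of the 5 pairs. The further step at 6 weeks over 14 days (1.09 ± 0.35, adjusted p = 0.0455) was lost when any 1 of 2-day replicate 3, 7-day replicates 1, 2 and 3, 14-day replicates 2 and 3, and 6-week replicates 1 and 3 was left out (adjusted p up to 0.166, for 6-week replicate 1) and with the replicate number as a block (adjusted p = 0.0716).

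Per exon length, Slc2a3 made up most of the transporter RNA, and its part was smallest at 6 weeks. It held 70.3% to 77.4% of the summed RPKM of the 3 transporters at 2 days, 82.8% to 83.9% at 7 days, 64.8% to 67.3% at 14 days and 47.8% to 56.5% at 6 weeks. Slc2a6 held 5.96% to 13.2%, 3.56% to 4.2%, 17.3% to 18% and 25.3% to 32.4% at the same ages. Slc2a1 stayed between 11.9% and 21.4%. Within the RNA of this family, the part of Slc2a6 was thus larger, and that of Slc2a3 smaller, from 14 days on.

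**Figure D3:**
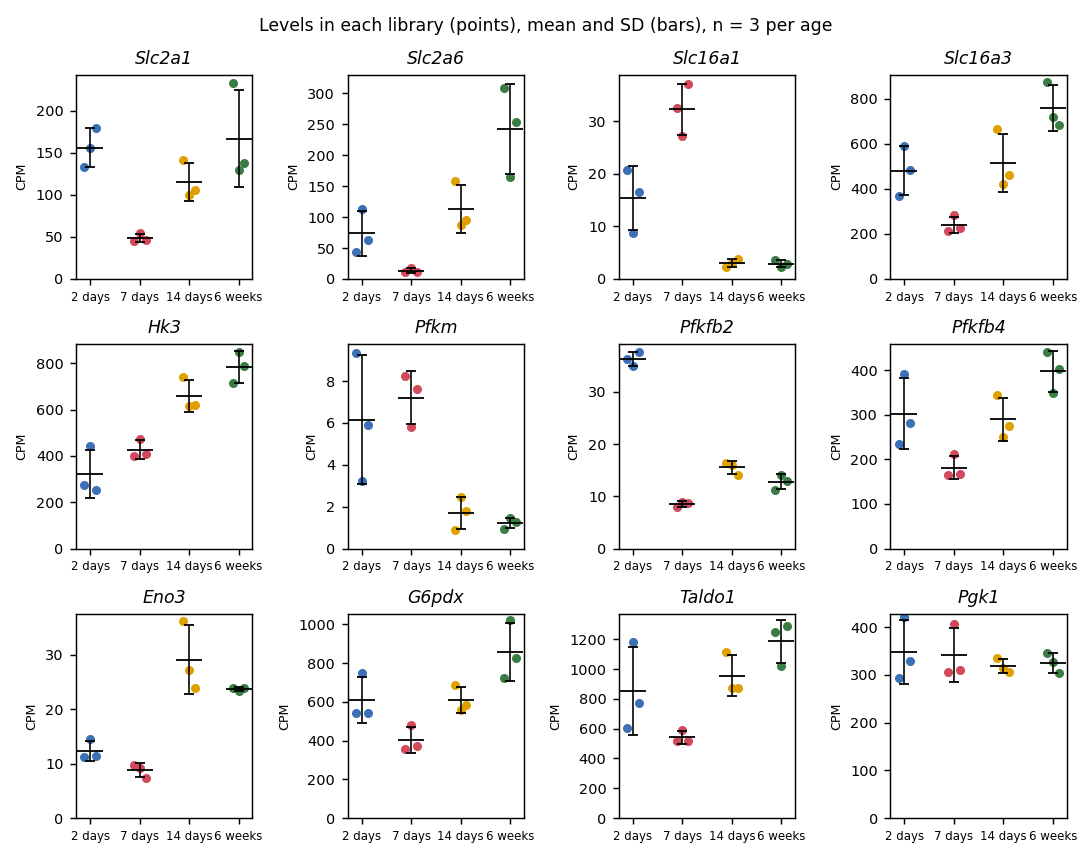
CPM in each library (points) with the mean and SD (bars, n = 3 per age) for 12 genes of the set, at 2 days, 7 days, 14 days and 6 weeks; each axis starts at 0. Slc2a1, Slc2a6, Slc16a3, Pfkfb4, G6pdx and Taldo1 have their lowest mean at 7 days, Slc16a1 and Pfkm are high at 2 and 7 days, Pfkfb2 is highest at 2 days, and Pgk1 has like means at all ages.

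Hexokinases trap glucose as glucose 6-phosphate, and of the 3 genes 1 was called at 7 days over 2 days, with a rise (22.9% of all genes). Hk3 was called there as well (0.47, adjusted p = 0.0359) when the 2-day and 7-day libraries were fitted alone with the replicate number as a block. Hk3, the isozyme typical of myeloid cells, had 275, 441 and 252 CPM at 2 days, 399, 473 and 406 at 7 days, 740.2, 617 and 621 at 14 days, and 715, 849.7 and 787 at 6 weeks. Its 14-day and 6-week libraries lay above all those of 2 and 7 days. It rose at 6 weeks over 2 days (1.28 ± 0.19, adjusted p = 0.000258). The step at 14 days over 7 days (0.63 ± 0.19, adjusted p = 0.0175) was lost when 7-day replicate 1, 7-day replicate 3 or 14-day replicate 1 was left out (adjusted p 0.064, 0.0614 and 0.0635).

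Hk2, the inducible isozyme that binds mitochondria, had 49.2, 79.9 and 52.7 CPM at 2 days, 86.9, 90.6 and 82.7 at 7 days, 124, 98.6 and 103 at 14 days, and 115, 143 and 134 at 6 weeks. The 2-day libraries were below those of every other age. It rose at 6 weeks over 2 days (1.11 ± 0.17, adjusted p = 0.000315). At 7 days over 2 days the change was 0.52 ± 0.17, adjusted p = 0.0245, 0.79 without 2-day replicate 2, and it was not called when 2-day replicate 3 or 7-day replicate 2 was left out (adjusted p 0.0516 and 0.0659). Hk1, the constitutive isozyme, ranged from 133 to 176 CPM and was called in no pair. Per exon length, Hk3 held 84.2% to 84.3% of hexokinase RPKM at 6 weeks and 73.7% to 79.1% at 2 days, while Hk1 held 6.95% to 7.27% at 6 weeks and 12% to 18.1% at 2 days.

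In upper glycolysis, from glucose 6-phosphate to the triose phosphates, the subunits of phosphofructokinase went different ways. This enzyme commits sugar to glycolysis, and its subunits are named for liver (Pfkl), muscle (Pfkm) and platelet (Pfkp). Pfkl had 29.6, 37.1 and 25.1 CPM at 2 days, 47.3, 47.2 and 42.2 at 7 days, 46.7, 44.6 and 45.6 at 14 days, and 82.7, 62.9 and 54.6 at 6 weeks. Every 2-day library was below, and every 6-week library above, those of all other ages. It rose at 7 days over 2 days (0.58 ± 0.16, adjusted p = 0.0112) and at 6 weeks over 2 days (1.13 ± 0.16, adjusted p = 0.000189). Its step at 6 weeks over 14 days (0.55 ± 0.16, adjusted p = 0.0329) was lost when any 1 of 14-day replicates 1, 2 and 3, and 6-week replicates 1 and 2 was left out (adjusted p up to 0.156, for 6-week replicate 1).

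Pfkm was rare, with 9.35, 3.23 and 5.89 CPM at 2 days, 8.23, 5.8 and 7.62 at 7 days, 0.905, 2.45 and 1.78 at 14 days, and 0.947, 1.46 and 1.26 at 6 weeks. All libraries of 2 and 7 days exceeded all of 14 days and 6 weeks. The change was -2.07 ± 0.39, adjusted p = 0.00121, at 14 days over 7 days and -2.33 ± 0.41, adjusted p = 0.000689, at 6 weeks over 2 days. Its lowest 2-day level, 3.23 CPM, was in replicate 2, where the erythroid markers also had their lowest sum of that age, 333 CPM. The sums of mast cell and basophil markers (3914 CPM) and of stromal and endothelial markers (53.4 CPM) were lowest there too. From 2 to 7 days the mean erythroid sum went from 534 to 3528 CPM, and the mean of Pfkm from 6.15 to 7.22. The part of RNA from these cell types in Pfkm was not tested.

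Pfkp, part of whose exons another gene, Pitrm1, overlaps, had 54.1, 42.4 and 52.2 CPM at 2 days, 29.1, 30.7 and 28.6 at 7 days, 61.8, 48.2 and 51.8 at 14 days, and 71.4, 65.5 and 57.3 at 6 weeks. Its 7-day libraries were below all others. It fell at 7 days over 2 days (-0.75 ± 0.13, adjusted p = 0.000541) and rose at 14 days over 7 days (0.87 ± 0.13, adjusted p = 0.000234) and at 6 weeks over 7 days (1.14 ± 0.13, adjusted p = 2.63e-05). Per exon length, Pfkm held 9.98% to 24.8% of phosphofructokinase RPKM at 2 days and 15.6% to 21.2% at 7 days, but 2.28% to 6.66% at 14 days and 1.58% to 2.96% at 6 weeks. Pfkl held 63.7% to 68.8% at 6 weeks and 39.3% to 57.3% at 2 days. In CPM, Pfkl and Pfkp averaged 66.7 and 64.7 at 6 weeks, so the larger share of Pfkl there rests on their exon lengths, 6675 and 13401 bases. The muscle-type part of this RNA was thus smaller from 14 days on.

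**Figure D4:**
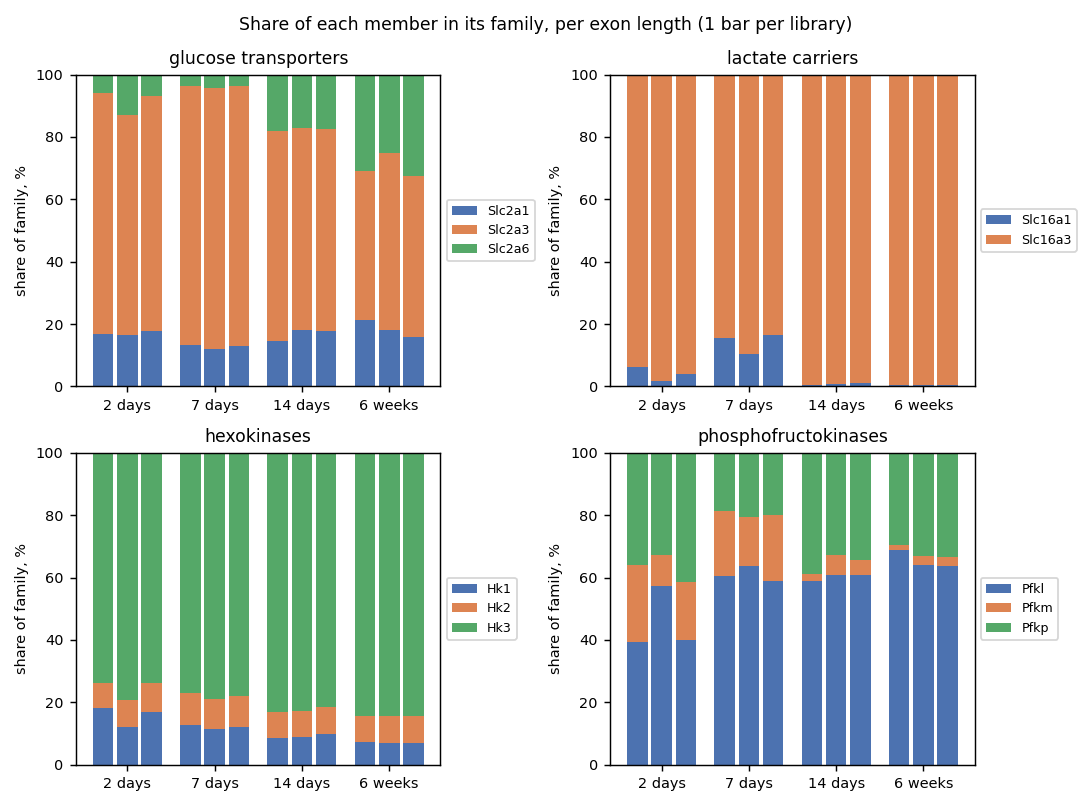
Share of each gene in the summed RPKM of its family, in %, for the glucose transporters, lactate carriers, hexokinases and phosphofructokinases, with 1 bar per library and 3 bars per age. Slc2a6 widens to 25.3% to 32.4% at 6 weeks, Slc16a1 is 10.4% to 16.4% at 7 days and at most 0.968% at 14 days and 6 weeks, and Pfkm is 1.58% to 2.96% at 6 weeks and 15.6% to 21.2% at 7 days.

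Gpi1, glucose 6-phosphate isomerase, had 2053, 2477 and 2182 CPM at 2 days, 1732, 1911 and 1595 at 7 days, 2042, 1764 and 1840.4 at 14 days, and 1634, 1753 and 1633 at 6 weeks. The 2-day libraries exceeded those of every other age. Its fall at 6 weeks over 2 days (-0.42 ± 0.13, adjusted p = 0.0239) was lost when 2-day replicate 3, 6-week replicate 1 or 6-week replicate 3 was left out (adjusted p 0.0524, 0.0742 and 0.0862) and without the low-count filter (adjusted p = 0.0519). Its fall at 7 days over 2 days (-0.36 ± 0.13, adjusted p = 0.0403) was lost when any 1 of 2-day replicates 2 and 3, 7-day replicates 1 and 3, 14-day replicates 2 and 3, and 6-week replicates 1, 2 and 3 was left out (adjusted p up to 0.204, for 7-day replicate 3), with library totals alone (-0.20, adjusted p = 0.0615), without the low-count filter (adjusted p = 0.127) and with the replicate block (adjusted p = 0.0638).

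Aldoa, the main aldolase here, splits fructose 1,6-bisphosphate. It had 619.8, 925 and 642 CPM at 2 days, 920.1, 1016 and 823 at 7 days, 857, 709 and 763 at 14 days, and 1117, 1073 and 1067 at 6 weeks. The 6-week libraries exceeded all others, and the rise at 6 weeks over 2 days was 0.57 ± 0.16, adjusted p = 0.0137. Aldoc, the brain-type aldolase, had 1.15, 0.955 and 0.767 CPM at 2 days, 0.711, 0.794 and 0.779 at 7 days, 1.55, 1.09 and 1.43 at 14 days, and 3.54, 2.91 and 2.68 at 6 weeks. It rose at 6 weeks over 14 days (1.17 ± 0.24, adjusted p = 0.00542) and over 7 days (1.99 ± 0.25, adjusted p = 4.73e-05), with every 6-week library above all others. Even so, it held at most 0.282% of aldolase RPKM in any library. Tpi1, which interconverts the triose phosphates, lay between 129.9 and 144 CPM at 6 weeks and between 85.8 and 113 CPM at the younger ages, with a change of 0.44 ± 0.12, adjusted p = 0.00971, at 6 weeks over 2 days, lost with library totals alone (0.39, adjusted p = 0.0657).

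The enzymes that make and remove fructose 2,6-bisphosphate, the strongest activator of phosphofructokinase, are encoded here by 3 genes. All 3 fell at 7 days over 2 days, and all 3 rose at 14 days over 7 days, where 25.8% and 24% of all genes did. At 6 weeks over 2 days 1 of the 3 was called (40.4% of all genes), and the 3 changes lay between -1.51 and 0.40. Pfkfb2, the heart-type form, had 36.3, 35 and 37.7 CPM at 2 days, 7.97, 8.94 and 8.72 at 7 days, 16.4, 16.1 and 14.2 at 14 days, and 11.2, 14.1 and 13 at 6 weeks. The 2-day libraries exceeded the rest by a wide margin, and the 7-day libraries were the lowest. Its change at 7 days over 2 days (-2.09 ± 0.12, adjusted p = 3.84e-07) had the smallest adjusted p of any pair in the set. At 14 days over 7 days it rose (0.86 ± 0.12, adjusted p = 0.000124), and at 6 weeks over 2 days it was lower (-1.51 ± 0.12, adjusted p = 1.41e-06).

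Pfkfb4 held most of this group's RNA, 70.3% to 84.6% of its RPKM in a library. It had 235, 391 and 281 CPM at 2 days, 165, 212 and 167 at 7 days, 344, 249.6 and 274 at 14 days, and 441, 349.7 and 403 at 6 weeks. Its 7-day libraries were below all others. The fall at 7 days over 2 days was -0.74 ± 0.19, adjusted p = 0.00775, and -0.49 without 2-day replicate 2. The rise at 14 days over 7 days (0.67 ± 0.19, adjusted p = 0.0134) was lost when 7-day replicate 1, 7-day replicate 3 or 14-day replicate 1 was left out (adjusted p 0.0562, 0.0554 and 0.0598), while the rise at 6 weeks over 7 days (1.13 ± 0.20, adjusted p = 0.00048) held in all 12 such fits. Pfkfb3, the inducible form with the highest kinase activity, lay between 79.1 and 94.6 CPM at 7 days and between 109 and 145 CPM at the other ages. Its changes were -0.56 ± 0.12, adjusted p = 0.0026, at 7 days over 2 days and 0.52 ± 0.12, adjusted p = 0.0044, at 14 days over 7 days.

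Lower glycolysis runs from glyceraldehyde 3-phosphate to pyruvate. Pkm, pyruvate kinase, had the highest level per length in the set, with a mean of 458 RPKM over the 12 libraries. It had 2055, 2993 and 2275 CPM at 2 days, 1799, 2108 and 1822 at 7 days, 2431, 1919 and 2043 at 14 days, and 2658, 2736 and 2642 at 6 weeks. The 6-week libraries exceeded all of 7 and 14 days but not those of 2 days. The difference at 6 weeks over 7 days (0.49 ± 0.16, adjusted p = 0.0246) was lost when any 1 of 7-day replicates 1 and 3, and 6-week replicates 1, 2 and 3 was left out (adjusted p up to 0.0862, for 7-day replicate 1), and was 0.32 with library totals alone.

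Pgk1, phosphoglycerate kinase, had 293, 422 and 329.7 CPM at 2 days, 307, 407 and 309.8 at 7 days, 336, 314 and 306 at 14 days, and 347, 326 and 304 at 6 weeks. Ages overlapped throughout, and the 5 changes lay between -0.10 and 0.03 with adjusted p of 0.624 or more. Near-identical copies elsewhere in the genome held 36.4% to 49.2% of the counts of Pgk1 itself. Gapdh, a common reference gene, ranged from 40.2 to 83.6 CPM and was called in no pair. Its own counts, 22453 over the 12 libraries, were fewer than the 156495 assigned to 69 copies of at least 95% identity over 300 bases. With these copies added, Gapdh averaged 433 CPM at 2 days, 394 at 7 days, 364 at 14 days and 429.7 at 6 weeks, again with no pair called.

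Pgam1, phosphoglycerate mutase, shared the dip: it lay between 98.4 and 116 CPM at 7 days and between 141 and 199 CPM at other ages. The changes were -0.80 ± 0.12, adjusted p = 0.000165, at 7 days over 2 days and 0.69 ± 0.12, adjusted p = 0.000543, at 14 days over 7 days. Its copy held 95.5% to 126% of its counts, and with the copy added the changes were -0.70 and 0.67, both past the threshold.

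Eno1, the main enolase, had 654, 851 and 682 CPM at 2 days, 825, 908 and 729 at 7 days, 956, 736 and 771 at 14 days, and 1172, 1069 and 1057 at 6 weeks. The 6-week libraries were above all others, with a rise of 0.59 ± 0.15, adjusted p = 0.0077, at 6 weeks over 2 days. Eno3, the muscle-type enolase, had 11.1, 14.5 and 11.4 CPM at 2 days, 9.73, 9.24 and 7.42 at 7 days, 36.1, 27.1 and 23.9 at 14 days, and 23.9, 23.2 and 23.9 at 6 weeks. Its libraries of 14 days and 6 weeks all exceeded those of 2 and 7 days. It rose at 14 days over 7 days (1.72 ± 0.17, adjusted p = 1.47e-05) and at 6 weeks over 2 days (0.94 ± 0.17, adjusted p = 0.000826). Per exon length Eno3 held 8.76% to 10.5% of enolase RPKM at 14 days and 3.05% to 3.52% at 7 days, with exon lengths of 1739 bases for Eno3 and 5379 for Eno1.

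Lactate is made by lactate dehydrogenase and leaves through the monocarboxylate carriers. Ldha, the subunit that favours lactate formation, had 467, 505 and 507 CPM at 2 days, 455, 508 and 457 at 7 days, 516, 449.9 and 426 at 14 days, and 609, 687 and 619.9 at 6 weeks. The 6-week libraries stood above all others and the younger ages overlapped. It was higher at 6 weeks over 7 days (0.43 ± 0.12, adjusted p = 0.0078, and 0.26 with library totals alone). The difference at 6 weeks over 14 days (0.46 ± 0.12, adjusted p = 0.0159) was lost when 14-day replicate 2, 14-day replicate 3 or 6-week replicate 2 was left out (adjusted p 0.0512, 0.0744 and 0.0604). Ldhb, the subunit that favours the return to pyruvate, had 1.84, 0.955 and 1.7 CPM at 2 days, 3.53, 2.51 and 3.49 at 7 days, 6.13, 4.49 and 6.45 at 14 days, and 5.49, 5.14 and 5.06 at 6 weeks. All 2-day libraries were below all 7-day libraries, and those were below all older ones. It rose at 7 days over 2 days (1.08 ± 0.25, adjusted p = 0.00388) and at 6 weeks over 2 days (1.79 ± 0.25, adjusted p = 0.00015). Ldha nevertheless held 96.9% to 99.6% of the summed RPKM of both in every library.

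Slc16a3 encodes MCT4, a lactate exporter of strongly glycolytic cells. It had 369.7, 589 and 482 CPM at 2 days, 212, 281 and 227 at 7 days, 663, 420.4 and 461 at 14 days, and 873, 717 and 682 at 6 weeks. The 7-day libraries were below all others and the 6-week libraries above all others. It fell at 7 days over 2 days (-1.0 ± 0.21, adjusted p = 0.00201), rose at 14 days over 7 days (1.10 ± 0.21, adjusted p = 0.00123) and was higher at 6 weeks over 7 days (1.66 ± 0.21, adjusted p = 6.16e-05). Its difference at 6 weeks over 2 days (0.66 ± 0.21, adjusted p = 0.0247) was lost when 2-day replicate 1 or 6-week replicate 1 was left out (adjusted p 0.0605 and 0.0929). Its direction over the first steps was that of Slc2a1 and Slc2a6.

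Slc16a1 encodes MCT1, a lactate carrier that works in both directions and is also found in red cells. It ran the other way, with 20.8, 8.79 and 16.5 CPM at 2 days, 32.4, 27.3 and 37.1 at 7 days, 2.19, 3.1 and 3.75 at 14 days, and 3.71, 2.3 and 2.79 at 6 weeks. The 7-day libraries were above all others, and those of 14 days and 6 weeks were below all younger ones. It rose at 7 days over 2 days (1.07 ± 0.28, adjusted p = 0.00797) and fell at 14 days over 7 days (-3.42 ± 0.31, adjusted p = 9.32e-06), the largest fall in the set at that step. It was lower at 6 weeks over 2 days (-2.39 ± 0.31, adjusted p = 7.29e-05). The erythroid marker sum was highest at 7 days too, with 4206, 2480 and 3899 CPM in the 3 libraries, whose Slc16a1 levels were 32.4, 27.3 and 37.1 CPM. In both, replicate 2 was the lowest of its age at 2 and at 7 days, and the part of erythroid RNA in Slc16a1 was not tested. Slc16a1 held 10.4% to 16.4% of the RPKM of both carriers at 7 days and at most 0.968% at 14 days and 6 weeks, so at those ages nearly all RNA of this pair was Slc16a3.

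The entry of pyruvate into the mitochondrion is set by pyruvate dehydrogenase and the kinases that switch it off. Pdha1, a catalytic subunit of the enzyme whose exons overlap Map3k15, lay between 62.7 and 76.7 CPM in all libraries and was called in no pair. Its inhibitory kinases differed from each other. Pdk3 lay between 46 and 52.4 CPM at 7 days and between 26.3 and 38.4 CPM at the other ages, so its 7-day libraries were the highest. It rose at 7 days over 2 days (0.65 ± 0.14, adjusted p = 0.0023) and fell at 14 days over 7 days (-0.49 ± 0.14, adjusted p = 0.0124). Pdk1, a kinase induced by low oxygen in many cells, lay between 9.34 and 10.5 CPM at 7 days and between 10.3 and 19.5 CPM elsewhere. Its fall at 7 days over 2 days (-0.56 ± 0.20, adjusted p = 0.0376) was lost when any 1 of 2-day replicates 1 and 3, 7-day replicates 1, 2 and 3, and 14-day replicate 2 was left out (adjusted p up to 0.268, for 2-day replicate 1), and its value was -0.27 without 2-day replicate 1. It was also lost with library totals alone (adjusted p = 0.197), without the low-count filter (adjusted p = 0.0702) and with the replicate block among the 2-day and 7-day libraries alone (adjusted p = 0.0717).

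For glycogen, the gene of breakdown and that of synthesis had different courses. Pygl, the liver-type glycogen phosphorylase that neutrophils use, had 1355, 2245 and 1589.5 CPM at 2 days, 938, 1184 and 941 at 7 days, 1563, 1146 and 1196 at 14 days, and 1419.6, 1333 and 1284 at 6 weeks. It fell at 7 days over 2 days (-0.76 ± 0.20, adjusted p = 0.00669, and -0.51 without 2-day replicate 2), and no 7-day library reached the 2-day range. No other pair was called. Gys1, glycogen synthase, lay between 108 and 158 CPM at 14 days and 6 weeks and between 62.5 and 96.7 CPM at 2 and 7 days, without overlap. It rose at 6 weeks over 2 days (0.80 ± 0.17, adjusted p = 0.00236).

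In the pentose phosphate pathway, 2 of 4 genes fell at 7 days over 2 days, 2 rose at 14 days over 7 days and 3 were higher at 6 weeks over 7 days, where 25.8%, 24% and 26.6% of all genes did. G6pdx encodes glucose 6-phosphate dehydrogenase, which opens the pathway and makes NADPH. It had 542, 748 and 544 CPM at 2 days, 356, 483 and 371 at 7 days, 686, 559 and 583 at 14 days, and 725, 1021 and 825 at 6 weeks. The 7-day libraries were below all others, and the highest level was in 6-week replicate 2. The rise at 6 weeks over 7 days was 1.09 ± 0.18, adjusted p = 0.000415. The fall at 7 days over 2 days (-0.60 ± 0.18, adjusted p = 0.0164) was lost when 2-day replicate 2, 7-day replicate 1 or 7-day replicate 3 was left out (adjusted p 0.0537, 0.0874 and 0.0792). The rise at 14 days over 7 days (0.60 ± 0.18, adjusted p = 0.0182) was lost when 7-day replicate 1, 7-day replicate 3 or 14-day replicate 1 was left out (adjusted p 0.0812, 0.0732 and 0.0668).

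Taldo1, the transaldolase of the non-oxidative branch, had 604, 1182 and 772 CPM at 2 days, 518, 589.8 and 517 at 7 days, 1113, 876 and 874 at 14 days, and 1251, 1019 and 1287 at 6 weeks. Its 7-day libraries were below all others as well. It rose at 14 days over 7 days (0.82 ± 0.22, adjusted p = 0.00849) and was higher at 6 weeks over 7 days (1.13 ± 0.22, adjusted p = 0.001). Its fall at 7 days over 2 days (-0.65 ± 0.21, adjusted p = 0.0242) rested on 2-day replicate 2, whose level was the highest of that age: without it the value was -0.32. It was lost when 2-day replicate 2, 7-day replicate 1 or 7-day replicate 3 was left out (adjusted p 0.101, 0.0875 and 0.0891).

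Pgd, which makes the second NADPH, had 889.9, 1513 and 959.7 CPM at 2 days, 799, 966 and 774 at 7 days, 1092, 857 and 912 at 14 days, and 1303, 1204 and 1270.2 at 6 weeks. Its difference at 6 weeks over 7 days (0.57 ± 0.19, adjusted p = 0.0254) was lost when any 1 of 7-day replicates 1 and 3, and 6-week replicates 1 and 3 was left out (adjusted p up to 0.0934, for 7-day replicate 3). Tkt, the transketolase, had 1262, 1493 and 1293 CPM at 2 days, 1507, 1590.4 and 1377 at 7 days, 1684, 1382 and 1487 at 14 days, and 1126, 1466 and 1216 at 6 weeks. Its libraries overlapped between all ages, and no pair was called.

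Per exon length, the set spanned a wide range of levels. After Pkm came Taldo1 with a mean of 407 RPKM over the 12 libraries, Aldoa with 301, Gpi1 with 292, G6pdx with 201, Pygl with 196 and Tkt with 191. Aldoc, with 0.469 RPKM, was the lowest. The leading places changed with age: at 6 weeks Taldo1 had 546 ± 66.9 and Pkm 536 ± 10.1 RPKM (SD, n = 3), within each other's spread, while at 7 days Taldo1 had 249.6 ± 19.1 and Pkm 382 ± 34.4 RPKM. G6pdx had 278 ± 49 RPKM at 6 weeks and 131 ± 22.4 at 7 days.

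**Figure D5:**
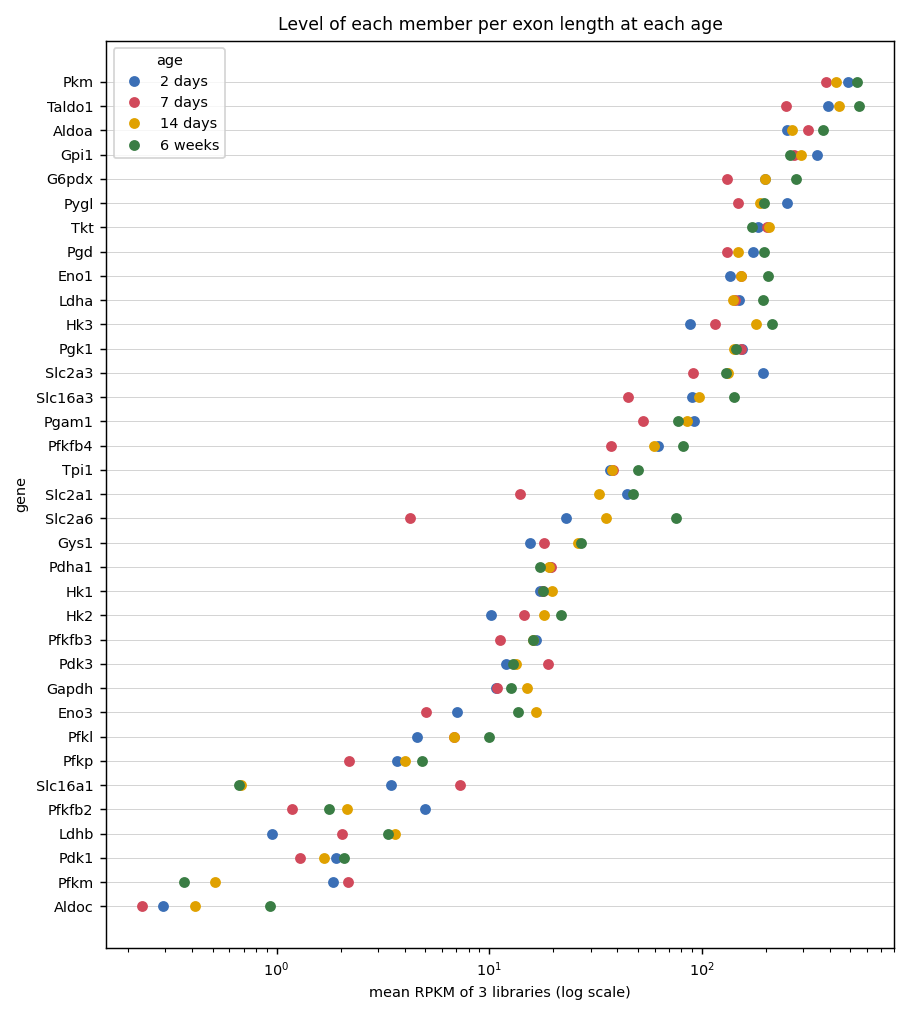
Mean RPKM of 3 libraries (horizontal, log scale) of each of the 35 genes at each age, ordered by the mean over all 12 libraries. Pkm and Taldo1 are at the top, Pfkm and Aldoc at the bottom, and the points of Slc2a6, Slc16a1 and Pfkm are spread the widest.

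Of the other genes of these pathways, taken from lists made by function, 11 of 16 in glycolysis were measured, of which 1 rose and 6 fell at 7 days over 2 days (22.9% and 25.8% of all genes) and 3 rose and 3 fell at 14 days over 7 days (24% and 21.9%). At 6 weeks over 2 days 6 fell and 0 rose (20.7% and 19.7% of all genes), with a median of -1.49, against 0.25 for the 35 genes. No rise was found at an unadjusted p below 0.05 in edgeR (0) or with DESeq2 (0) either. Pklr, the pyruvate kinase of liver and red cells, had 22.2, 3.06 and 13.1 CPM at 2 days, 15.2, 10.3 and 16.4 at 7 days, 0.0292, 0.272 and 0.755 at 14 days, and 0.251, 0.159 and 0.0273 at 6 weeks. Its libraries of 2 and 7 days exceeded all older ones, with a change of -5.28 ± 0.79, adjusted p = 0.000243, at 14 days over 7 days. Bpgm, which makes the 2,3-bisphosphoglycerate of red cells, averaged 8.02 ± 1.83 CPM at 2 days, 28.2 ± 5.6 at 7 days, 7.21 ± 0.558 at 14 days, and 6.92 ± 0.0678 at 6 weeks (SD, n = 3 at each age). Its change was -1.97 ± 0.19, adjusted p = 1.18e-05, at 14 days over 7 days. Erythroid markers were highest at 7 days as well, with a mean sum of 3528 CPM against 534 at 2 days. Pklr averaged 14 CPM at 7 days and 12.8 at 2 days. The part of erythroid RNA in Pklr and Bpgm was not tested. Eno2, the neuronal enolase, averaged 5.28 ± 0.923 CPM at 2 days, 0.186 ± 0.0148 at 7 days, 0.422 ± 0.138 at 14 days, and 0.492 ± 0.148 at 6 weeks. The fall at 7 days over 2 days was -4.80 ± 0.34, adjusted p = 1.19e-06. Slc2a9, a urate transporter of the glucose transporter family, averaged 36.9 ± 4.72 CPM at 2 days, 11.3 ± 0.869 at 7 days, 19 ± 1.16 at 14 days, and 6.87 ± 0.978 at 6 weeks. It was lower at 6 weeks over 2 days (-2.42 ± 0.14, adjusted p = 1.70e-07).

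Among 16 measured genes of 17 listed for lactate and pyruvate handling, 7 rose and 3 fell at 7 days over 2 days (22.9% and 25.8% of all genes). At 14 days over 7 days 3 rose and 7 fell (24% and 21.9%). At 6 weeks over 7 days 5 rose and 5 fell (26.6% and 24.5%). Over the first 2 steps the median changes of these 16 were 0.34 and -0.34, opposite in sign to those of the 35 genes. Mpc1, part of the mitochondrial pyruvate carrier, averaged 28.9 ± 5.26 CPM at 2 days, 15.5 ± 1.62 at 7 days, 31 ± 8.02 at 14 days, and 41.1 ± 5.93 at 6 weeks. It rose at 14 days over 7 days (1.00 ± 0.19, adjusted p = 0.00122). Emb, embigin, a partner that brings monocarboxylate carriers to the membrane, averaged 505 ± 109 CPM at 2 days, 229 ± 25.5 at 7 days, 278 ± 61.7 at 14 days, and 364 ± 60.1 at 6 weeks. The change at 7 days over 2 days was -1.14 ± 0.20, adjusted p = 0.000603. Slc16a7, another monocarboxylate carrier, averaged 1.87 ± 0.438 CPM at 2 days, 5.05 ± 0.326 at 7 days, 4.34 ± 0.335 at 14 days, and 5.07 ± 1.06 at 6 weeks. The rise at 6 weeks over 2 days was 1.45 ± 0.21, adjusted p = 0.00021. Pdk2, a further pyruvate dehydrogenase kinase, averaged 4.78 ± 1.46 CPM at 2 days, 2.54 ± 0.119 at 7 days, 5.13 ± 0.557 at 14 days, and 5.17 ± 0.237 at 6 weeks, with a rise at 6 weeks over 7 days (1.02 ± 0.21, adjusted p = 0.00178). Bsg, basigin, the partner of MCT1 and MCT4, ranged from 92.1 to 132 CPM and was lower at 14 days over 7 days (-0.42 ± 0.09, adjusted p = 0.00226).

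Of 8 other pentose phosphate genes, all measured, 3 rose and 1 fell at 7 days over 2 days (22.9% and 25.8% of all genes). At 14 days over 7 days 1 rose and 4 fell (24% and 21.9%). Rpe, ribulose phosphate epimerase, averaged 25.4 ± 7.31 CPM at 2 days, 69 ± 2.21 at 7 days, 40.4 ± 3.33 at 14 days, and 38 ± 4.8 at 6 weeks. It rose at 7 days over 2 days (1.44 ± 0.17, adjusted p = 3.71e-05). Prps2, which turns ribose 5-phosphate into the precursor of nucleotides, averaged 11 ± 2.26 CPM at 2 days, 22.3 ± 0.784 at 7 days, 13.5 ± 3.81 at 14 days, and 14.8 ± 0.248 at 6 weeks. It also rose at 7 days over 2 days (1.02 ± 0.20, adjusted p = 0.00113). Prps1, another enzyme of that step, averaged 8.66 ± 3.2 CPM at 2 days, 13.4 ± 1.98 at 7 days, 7.15 ± 1.49 at 14 days, and 6.54 ± 0.371 at 6 weeks, and was lower at 6 weeks over 7 days (-1.03 ± 0.25, adjusted p = 0.00431). Genes of dividing cells had their highest summed level at that age too, and their part in these 3 genes was not tested.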

How the data were processed

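Polyadenylated RNA of Ly6G+ spleen cells was sequenced at 4 ages with 3 libraries each. Trizol extraction and random hexamer priming are given in the labels' protocols. The authors deposited 1 table of counts, whole numbers for each gene with no normalization. RSEM 1.2.3, build mm10 and DESeq2, without a version, are named in the submitters' processing notes. What each tool did is not given in the sources used here, nor is the aligner or whether strand was kept. RSEM divides reads among similar genes, so counts of genes with near-identical copies are uncertain, and reads of antisense partners cannot be told apart.

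Symbols, positions and exon lengths came from GENCODE M21 on GRCm38, the assembly of mm10, for 37570 of the 38887 identifiers. The other 1317, at most 0.441% of a library's counts, stayed in the totals. Counts were scaled with TMM factors, filtered with filterByExpr (minimum count 10) and tested with edgeR 4.0.16 (glmQLFit and glmQLFTest) in R 4.3.3, in 1 model over the 12 libraries with age as the only term. Tests were a joint test and 5 pairs of ages. P-values were adjusted over the 15494 genes by Benjamini-Hochberg, with a threshold of 0.05. SE is the absolute log2 fold change over the square root of F. The procedure was tested on simulated data. Totals of 34495767 to 38795913 counts leave little counting error other than for rare transcripts. The libraries of an age differed from each other beyond sampling noise, so none was merged.

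The members and the lists of pathway and marker genes were chosen with earlier results of these data known. Values in every library are given for the 12 members of highest RPKM and for members called with an absolute log2 fold change of 1 or more. Other pathway genes were named if called with a change of that size and a mean of 5 CPM or more, at most 4 per list, or among 6 genes chosen by role. Copies were found by sequence match of at least 95% identity over 300 bases. Promoters came from RefSeq on GRCm38.p6.

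Alternatives were median-ratio factors, library totals, no low-count filter, DESeq2 1.42.0, the replicate number as a block, and leaving out each library. Merging copies, and leaving out 2-day replicate 2 with 14-day replicate 1, were added after seeing the data. Libraries sharing a replicate number deviated from their age means with correlations of -0.394 to 0.37, and between 2-day and 7-day libraries all 3 pairs exceeded 0.1 (0.122, 0.344 and 0.37). No label gives a pairing, and libraries of unlike number were not compared in this way. Whether the numbers pair the libraries of any ages is thus not known. Unless stated, changes and counts are from the model without pairing. A fit of the 2-day and 7-day libraries with the replicate number as a block was added after seeing the data.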

Additional observations from a re-analysis of the deposited data

How the results depend on the processing

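No change of a member turned direction with a call under any alternative run. Among other named genes Txnip was not called at 7 days over 2 days (-0.08). Its value lay between -0.22 and 0.42 as libraries were left out, and it was called as a rise, at 0.42, both without 2-day replicate 2 and without it and 14-day replicate 1. Of the member tests in 5 pairs (35 genes each), 166 kept their side of the threshold with DESeq2 and 9 were gained; 173 were kept and 2 gained with median-ratio factors; 170 were kept and 5 lost without the low-count filter; merging copies changed 0. With library totals alone 145 were kept, 19 gained and 11 lost. That scaling moved the median log2 fold change of all genes to 0.14 at 7 days over 2 days, to -0.16 at 6 weeks over 7 days, and to -0.08 at each of 14 days over 7 days and 6 weeks over 14 days, so it shifts the members with all other genes. The largest moves in counts were at the last step. At 6 weeks over 14 days, 10 members rose with library totals, 9 with DESeq2, and 17 without 2-day replicate 2 and 14-day replicate 1, that pair chosen after seeing the data, with 1 fall. Of all genes, 18%, 24.1% and 30.6% were called in these fits, against 18.9% in the main fit. At 7 days over 2 days, 10 rose and 12 fell with library totals, and 9 rose without those 2 libraries. Of all genes, 46% and 56.6% were called there, against 48.7%. At 6 weeks over 7 days, 6 fell with library totals and 5 without those 2 libraries, where 25 rose in place of 23. All genes called in this pair were 49.7% and 63.2%, against 51%.

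Leaving out each library in turn gave 24 to 30 members in the joint test. At 7 days over 2 days it gave 4 to 8 rises and 10 to 16 falls, and at 14 days over 7 days 10 to 17 rises and 3 to 4 falls. At 6 weeks over 14 days it gave 1 to 11 rises and 0 falls, at 6 weeks over 2 days 12 to 17 rises and 3 to 6 falls, and at 6 weeks over 7 days 15 to 24 rises and 3 to 4 falls. Of all genes, 59.6% to 77.5% were called in the joint test of these fits. For the pairs in the order above, it was 38.2% to 50.9%, 35% to 54.7%, 10.5% to 29.3%, 29.9% to 51.2% and 41.3% to 58.4%. The members called in all 12 such fits numbered 4 rises and 10 falls at 7 days over 2 days, 9 and 3 at 14 days over 7 days, 11 and 3 at 6 weeks over 2 days, and 15 and 3 at 6 weeks over 7 days. The cause of these changes was not tested, though each such fit has fewer libraries. The replicate block gave 27 members in the joint test and lost 2 calls among pairs, Gpi1 at 7 days over 2 days (adjusted p = 0.0638) and Slc2a6 at 6 weeks over 14 days (adjusted p = 0.0716). With the 2-day and 7-day libraries fitted alone, a choice made after seeing the data, 6 members rose and 12 fell with the replicate block and 5 rose and 11 fell with no replicate block. Of all genes, 46.1% and 42.7% were called in these fits. Whether the numbers pair the libraries of any ages is not known, and the loss for Slc2a6 says nothing of effect size.

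Depth limits only rare members such as Pfkm, Aldoc and Ldhb. With 3 libraries per age, changes as small as those of Tpi1 or Pkm sit near the threshold. Sex cannot be told apart from age between the younger and the older pair of ages, and no batch is stated.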

Other observations

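Regulators of glycolysis were measured for all 16 genes listed. At 7 days over 2 days 3 rose and 6 fell (22.9% and 25.8% of all genes). At 14 days over 7 days 4 rose and 5 fell (24% and 21.9%), and at 6 weeks over 7 days 7 rose and 3 fell (26.6% and 24.5%). Hif1a, which encodes the oxygen-sensitive subunit of HIF, an activator of glycolytic genes, had 69.6, 55.8 and 96.9 CPM at 2 days, 36.5, 37.9 and 37.6 at 7 days, 71.3, 51.4 and 50.4 at 14 days, and 116, 77.4 and 78.2 at 6 weeks. All 7-day libraries were below all others. It was lower at 7 days over 2 days (-0.99 ± 0.22, adjusted p = 0.00249) and was higher at 6 weeks over 7 days (1.28 ± 0.22, adjusted p = 0.000419). Egln3, an oxygen sensor that marks HIF for destruction and is itself a known HIF target, had 18.2, 29.4 and 25.3 CPM at 2 days, 5.73, 7.3 and 5.98 at 7 days, 25, 17.5 and 19.4 at 14 days, and 77.7, 36.8 and 34.9 at 6 weeks. Its 7-day libraries were the lowest, and the change was -1.94 ± 0.30, adjusted p = 0.000245, at 7 days over 2 days and 2.97 ± 0.31, adjusted p = 1.28e-05, at 6 weeks over 7 days. Hif1a and Egln3 thus had their lowest means at 7 days, as did 15 of the 28 members called in the joint test, against 35.2% of all genes called. The lowest mean was at 2 days for 9 of the 28, Hk2, Aldoa and Eno1 among them. The part of HIF in the levels of the members was not tested. Protein and oxygen levels were not measured.

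Myc, a transcription factor of growing cells that also activates glycolytic genes, had 29, 13.2 and 17.5 CPM at 2 days, 67.7, 55.1 and 64.2 at 7 days, 17.8, 32.4 and 37.2 at 14 days, and 20.3, 18 and 16.6 at 6 weeks. It was highest at 7 days, with a change of 1.64 ± 0.29, adjusted p = 0.000582, at 7 days over 2 days and -1.77 ± 0.29, adjusted p = 0.000329, at 6 weeks over 7 days. The marker genes of dividing cells were also highest at 7 days, and their part in Myc was not tested. Txnip and Arrdc4 are arrestin-like genes induced by glucose, and the TXNIP protein lowers glucose uptake. Txnip had 527, 1208 and 580.2 CPM at 2 days, 726, 785 and 675 at 7 days, 619.8, 618 and 688 at 14 days, and 2129.8, 1598 and 2096 at 6 weeks, and rose at 6 weeks over 14 days (1.60 ± 0.27, adjusted p = 0.00161). Arrdc4 had 47.9, 83.5 and 60.2 CPM at 2 days, 189, 202 and 188 at 7 days, 47.3, 38.2 and 40.7 at 14 days, and 115, 72.6 and 92.3 at 6 weeks. It was highest at 7 days and fell at 14 days over 7 days (-2.20 ± 0.21, adjusted p = 1.04e-05).

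Of 18 other genes of glycogen and glucose 6-phosphate, 16 were measured. At 7 days over 2 days 5 rose and 7 fell (22.9% and 25.8% of all genes). At 14 days over 7 days 6 rose and 2 fell (24% and 21.9%). Slc37a4 carries glucose 6-phosphate into the endoplasmic reticulum and G6pc3 cleaves it there, and loss of either gene causes neutropenia in people. Slc37a4 had 14.5, 13.8 and 14.4 CPM at 2 days, 7.62, 6.96 and 7.17 at 7 days, 12.1, 12.1 and 11.9 at 14 days, and 8.53, 11.1 and 10.8 at 6 weeks. It decreased at 7 days over 2 days (-0.98 ± 0.12, adjusted p = 6.34e-05) and rose at 14 days over 7 days (0.73 ± 0.12, adjusted p = 0.000584). G6pc3 ranged from 5.83 to 11.9 CPM, and 1 of its 5 pairs was called: the change of 0.62 ± 0.20, adjusted p = 0.0228, at 6 weeks over 7 days, which was lost when any 1 of 7-day replicates 1, 2 and 3, and 6-week replicates 2 and 3 was left out (adjusted p up to 0.115, for 7-day replicate 3) and with library totals alone (0.44, adjusted p = 0.197). Without 2-day replicate 2, G6pc3 was also called as lower at 7 days over 2 days (-0.65, adjusted p = 0.00472). It was called as higher at 14 days over 7 days without 2-day replicate 2 (0.50, adjusted p = 0.0113) or 2-day replicate 1 (0.48, adjusted p = 0.0251). Ppp1r3d, which brings a phosphatase to glycogen, averaged 92.9 ± 24.2 CPM at 2 days, 35.8 ± 8.7 at 7 days, 97.9 ± 40.9 at 14 days, and 168 ± 32.7 at 6 weeks (SD, n = 3 at each age). Like Pygl, it was lower at 7 days over 2 days (-1.38 ± 0.29, adjusted p = 0.00197), and was highest at 6 weeks. Pygb, the brain-type phosphorylase, averaged 15.1 ± 1.88 CPM at 2 days, 28.1 ± 2.28 at 7 days, 22.2 ± 5.52 at 14 days, and 40.2 ± 2.54 at 6 weeks. It rose at 6 weeks over 2 days (1.41 ± 0.17, adjusted p = 4.75e-05). Pygm, the muscle-type phosphorylase, averaged 8.63 ± 4.02 CPM at 2 days, 3.67 ± 0.658 at 7 days, 6.16 ± 0.326 at 14 days, and 3.96 ± 0.247 at 6 weeks. Its change at 7 days over 2 days was -1.24 ± 0.30, adjusted p = 0.00534, although some libraries of both ages overlapped. Slc37a2, a sugar phosphate exchanger of macrophages, averaged 9.25 ± 4.34 CPM at 2 days, 22.5 ± 0.493 at 7 days, 17.4 ± 3.25 at 14 days, and 50.9 ± 7.00 at 6 weeks. It rose at 6 weeks over 2 days (2.47 ± 0.26, adjusted p = 1.65e-05). Of the 12 monocyte and macrophage markers 10 rose in that pair too, as 19.7% of all genes did, and their part was not tested.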
